A study of Mus musculus with 1 sample.

Results

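Vitamin A is turned into retinoic acid, a small lipid hormone, by a short chain of proteins, and 9 genes of that chain were examined in ovarian surface epithelial cells of the mouse. They were Rbp4, Stra6, Aldh1a1, Aldh1a2, Aldh1a3, Crabp1, Crabp2, Cyp26a1 and Cyp26b1. Members were all probe sets paired with one of these symbols and no other, which gave 11 of the 45101 probe sets on the array and 9 of 18193 named genes. No probe set was shared between a member and another gene. The sample was total RNA from cells of wild-type mice aged 3 months, hybridised to 1 Affymetrix expression array. The labels record no treatment for these animals and do not say how many mice were used. Of the 3 genotypes in the series design, the wild type was analysed here, with 1 sample. Genotypes were therefore not compared, and the values carry no replicate error.

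Retinol travels in blood bound to the carrier Rbp4 and enters cells through the membrane receptor Stra6. Alcohol and retinol dehydrogenases oxidise it reversibly to retinal, and the Aldh1a enzymes oxidise retinal irreversibly to retinoic acid. Inside the cell Crabp1 and Crabp2 bind retinoic acid, Crabp2 hands it to nuclear receptors, and the Cyp26 cytochromes P450 break it down. Retinoic acid of embryonic mesothelium is made largely by Aldh1a2, and in the fetal ovary retinoic acid is known for its role in the entry of germ cells into meiosis.

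Whether a gene was detected was judged against a background limit of 46.5 in intensity (5.54 as log2). This value is the 95th percentile of 126 background probe sets, which belong to keratin-associated proteins and to receptors of smell, pheromones and bitter taste. Background probe sets ran from 7 to 125 with a median of 13, and 7 of them exceeded the limit by construction. Genes whose brightest probe set exceeded the limit are described as above background. Probe sets differ in affinity, so each was set against background and against other probe sets of the same gene, and the members were not ranked against each other.

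Of the 9 genes, 7 (77.8%) were above background, while 62.8% of all named genes were. The 2 that were not were Aldh1a3 and Crabp1. Genes with more probe sets pass such a limit more often, and 8 of the 9 members had 1 probe set each. Among these 8 genes 7 were above the limit, beside 47.3% of all genes with 1 probe set. The median level of the 9 genes was 6.58 on the log2 scale, beside 7.06 for all named genes and 5.29 for those with 1 probe set. When the 99th percentile was taken, 5 of the 9 genes (55.6%) were above the limit, beside 55.3% of all named genes, and with genes of other organs as background 5 of 9 were, beside 58.4%. Under these stricter limits the share of the members was therefore close to that of all genes. The share of genes with 1 probe set was not taken under them. At the looser 90th percentile 8 of the 9 genes (88.9%) were above the limit, beside 73.2% of all named genes. Genes are not replicates, and no test was made of these shares. In a bulk sample, fewer cells that express a gene and less RNA of it per cell cannot be told apart.

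**Figure D1:**
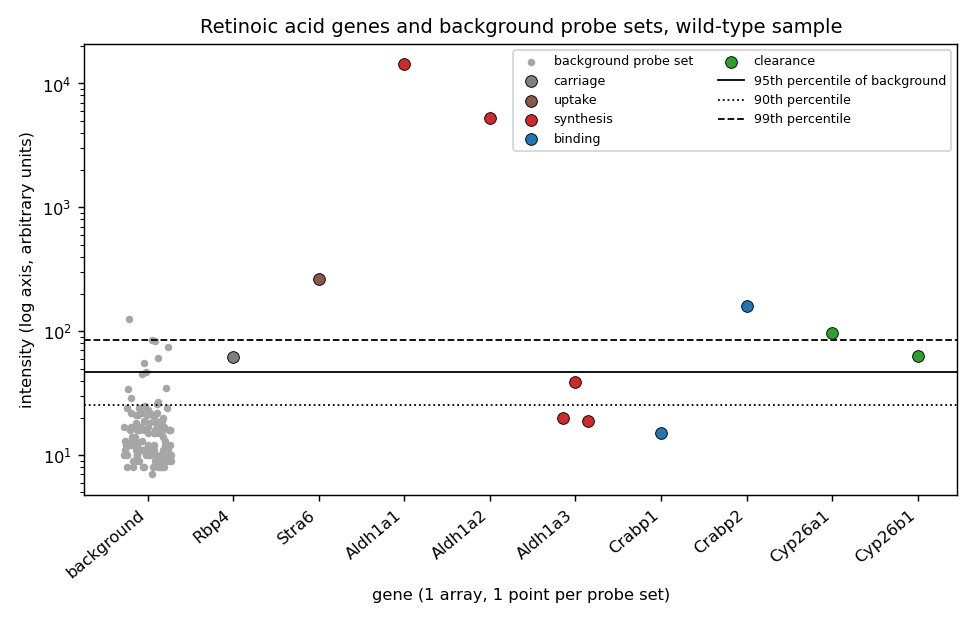
Intensity (log axis, arbitrary units) of each probe set of the 9 retinoic acid genes, coloured by role, beside the 126 background probe sets (grey, spread sideways for visibility), in the wild-type sample. The lines mark the 90th, 95th and 99th percentile of background at 25.5, 46.5 and 84.75, and heights of different genes are not comparable because probe sets differ in affinity. Aldh1a1 and Aldh1a2 lie far above every background probe set, Rbp4 and Cyp26b1 lie between the upper pair of lines, and Aldh1a3 and Crabp1 lie below the limit.

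The upstream sequences of Aldh1a1 and Aldh1a2 are shown because both lay far above all background probe sets. That of Aldh1a7 is shown because it is a close rodent relative of Aldh1a1. No upstream sequence of Aldh1a3, the synthesis gene below the limit, was used here, so the stretches allow no comparison with it. Each stretch is the 120 bases before an annotated transcript start, 5′ to 3′ on the gene's own strand, taken from RefSeq on build GRCm38.p6. For Aldh1a1, which has 2 annotated starts in the table, the one further along the gene is shown. Capitals mark the motif CCAAT, a box found in many promoters, and ATGCAAAT, the octamer bound by POU-domain factors.
Aldh1a1 (chr19:20601848-20601967, plus strand): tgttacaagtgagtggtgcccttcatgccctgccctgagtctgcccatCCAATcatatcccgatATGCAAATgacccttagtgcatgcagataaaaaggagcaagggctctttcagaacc
Aldh1a7 (chr19:20727557-20727676, minus strand): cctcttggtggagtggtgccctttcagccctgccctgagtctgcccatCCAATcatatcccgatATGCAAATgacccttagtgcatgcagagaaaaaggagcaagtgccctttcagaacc
Aldh1a2 (chr9:71215669-71215788, plus strand): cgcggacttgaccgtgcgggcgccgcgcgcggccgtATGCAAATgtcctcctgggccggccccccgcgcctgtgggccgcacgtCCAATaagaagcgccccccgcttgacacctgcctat

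The Aldh1a1 and Aldh1a7 stretches, on opposite strands of the same chromosome, were identical at 105 of 120 bases (87.5%) without gaps. Over the whole windows of 300 bases they were identical at 177 bases (59.0%). Aldh1a1 and Aldh1a2 were identical at 23 of 120 (19.2%). All 3 stretches held both motifs, while the window of the other annotated Aldh1a1 start held neither. The box CCAAT was present on either strand in 37.4% of the 32851 promoter windows of 300 bases in the RefSeq table, and ATGCAAAT in 1.74%. The octamer was added to the search after the sequences had been seen. It lay at positions -56 to -49 from the start in Aldh1a1 and Aldh1a7, and at -84 to -77 in Aldh1a2. Aldh8a1, a relative whose probe sets were both below the background limit, also held it, at -58 to -51. A match describes letters and not a site in use.

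Receptors of retinoic acid bind paired copies of a short hexamer. The hexamer AGGTCA and its variants, the form AGTTCA, the form GGGTCA and the form GGTTCA, were searched on both strands as direct repeats spaced by 1, 2 or 5 bases. Windows were used for 7 of the 9 members, without Aldh1a3 and Crabp2, and for 59 of 83 other listed genes. Among these genes Cyp26a1 and Rarb held a repeat spaced by 5 bases. Bco1, which splits carotene, held one spaced by 1 base at -56 to -44. The elements of Cyp26a1, which clears retinoic acid, and of Rarb, which encodes a retinoic acid receptor, are shown because both genes are textbook targets of the hormone. Capitals mark the hexamers, which are 5 bases apart, and the build is GRCm38.p6.
Cyp26a1 (chr19:37697771-37697797, plus strand): aaagaTGAACTttgggTGAACTaattt
Rarb (chr14:16575508-16575534, minus strand): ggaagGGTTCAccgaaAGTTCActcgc

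The Cyp26a1 repeat lay at positions -32 to -16 from the start, in reverse orientation on the gene's strand, and the Rarb repeat at -53 to -37 in forward orientation. A repeat spaced by 5 bases was found in 32 of the 32851 windows, or 0.0974%, and in 1 of the 12 windows of the members. Repeats spaced by 1 or 2 bases were present in 0.222% and 0.268% of all windows and in 0 of the 12. At least 1 hexamer was present in 43.7% of all windows. In Aldh1a1 and Aldh1a7 a hexamer, read as TGACCC at -49 to -44, overlapped the last base of the octamer.

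Synthesis genes gave signals on both sides of the limit. Aldh1a1, a retinal dehydrogenase of the cytosol, had an intensity of 14238 on probe set 1416468_at, which was 306 times the limit and 8.26 above it on the log2 scale. Aldh1a2, the retinal dehydrogenase of mesothelium and of much of the embryo, had 5274 on probe set 1422789_at, or 113 times the limit. None of the 126 background probe sets reached either value. Aldh1a3, the third retinal dehydrogenase, had 19 on 1448789_at, 20 on 1417642_at and 39 on 1427395_a_at, all below the limit, although 82.9% of all genes with 3 probe sets were above background. The log2 values of these 3 probe sets had an SD of 0.58, beside a median SD of 1.39 for the 9010 genes with several probe sets. Of the background probe sets, 8 reached the value of the brightest Aldh1a3 probe set and 30 that of the lowest. The brightest Aldh1a3 probe set was above a limit set at the 90th percentile, and above one taken from smell and pheromone receptors alone. Those limits were 25.5 and 29.3, so the probe sets at 19 and 20 stayed below both.

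Aldh1a7, the relative whose upstream stretch resembled that of Aldh1a1, had an intensity of 1071 on 1 probe set. Whether the Aldh1a1 and Aldh1a7 probe sets take up each other's transcript was not tested, as the sequences of the probes were not used here. Of 16 aldehyde dehydrogenases outside the members, Aldh1a7 included, 14 (87.5%) were above background, beside 62.8% of all named genes. The median level of the 16 was 8.37 on the log2 scale. Aldh2, the mitochondrial enzyme that clears acetaldehyde, had values of 15, 16, 21, 67 and 1119 on its 5 probe sets, of which 2 exceed the limit. Aldh9a1, which acts on aminobutyraldehyde, had 1088 and 3107. Aldh8a1, a liver and kidney enzyme, had 9 and 21, and Aldh3a1, an enzyme of cornea and stomach, had 14. These last 2 were the members of the list not above the limit.

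Of 15 measured enzymes that convert retinol and retinal, 9 (60.0%) were above background, a share near the 62.8% of all named genes, with a median of 6.04 on the log2 scale. Rdh10, the main retinol dehydrogenase of the embryo, had 245 and 730. Dhrs3, which returns retinal to retinol and is itself a target of retinoic acid, had 2957. Adh5, a broadly expressed alcohol dehydrogenase, had 3452 on 1 probe set and 14 on the other. Adh1, the alcohol dehydrogenase that clears excess retinol, had 29, and Adh4 had 18, both below the limit. Adh7, an alcohol dehydrogenase of stomach and other epithelia, had 49 and 11, so that its brighter probe set lay just above 46.5. Rdh11, a retinal reductase, had 178 and 282, and Rdh1 and Rdh7, retinol dehydrogenases, had 14 and 13.

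The genes of carriage and uptake were both above the limit. Rbp4, the blood carrier of retinol, had 62 on probe set 1426225_at, 1.33 times the limit, and 4 background probe sets were as bright. Rbp4 was below the limit when this was set at the 99th percentile of background or from genes of other organs. Stra6, the receptor through which Rbp4 delivers retinol, had 265 on probe set 1422723_at, 5.70 times the limit, and no background probe set reached it. Liver and fat are the main sources of Rbp4, and their markers were measured too. Hepatocyte markers were above the limit in 1 of 6 cases (16.7%), beside 62.8% of all named genes. Their levels ran from 13 to 65, and Alb, serum albumin, was at 18. The hepatocyte marker above the limit was Ttr, transthyretin, the partner of Rbp4 in blood, with 65 on 1 probe set and between 8 and 11 on the other 3. Adipocyte markers were above the limit in 1 of 5 cases (20%), with levels from 10 to 58. The one above it was Retn at 58, and Adipoq, adiponectin, was at 11. Whether RNA of liver or fat adds to the Rbp4 value was not tested.

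Proteins that store retinol were mostly not detected. The 10 measured genes for carriage, binding and storage outside the members had a median of 4.52 on the log2 scale. Of these, 3 (30.0%) were above the limit, beside 62.8% of all named genes. They were Ttr, Scarb1, a scavenger receptor that takes up carotenoids, with 719 to 1022, and Dgat1, an acyltransferase of triglyceride synthesis that can also esterify retinol, with 461 and 33. Lrat, the main enzyme that esterifies retinol for storage, had 10 and 11. Bco1, which splits carotene into retinal, had 14, and Rbp2 and Rbp7, intracellular retinol binding proteins, had 40 and 13.

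The binding proteins of retinoic acid fell on opposite sides of the limit. Crabp2, which carries retinoic acid to its nuclear receptors, had 161 on probe set 1451191_at, 3.46 times the limit and above all 126 background probe sets. Crabp1, which holds retinoic acid in the cytoplasm, had 15 on probe set 1448326_a_at, a value that 57 background probe sets reached. The identifier of the Crabp1 probe set marks several transcripts of one gene. Of 11 measured relatives in the same family of lipid binding proteins, 3 (27.3%) were above background, beside 62.8% of all named genes. The median level of the 11 was 4.46 on the log2 scale. Fabp5, a fatty acid binding protein that can carry retinoic acid to Ppard, had 1673 and 3353. Fabp3, the form of heart muscle, had 2052 and 26, and Fabp7, the form of brain, had 64. Fabp4, the adipocyte form, had 4 probe sets between 10 and 22.

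Clearance genes were above the limit by small margins. Cyp26a1 had 96 on probe set 1419430_at, 2.06 times the limit, and 1 background probe set reached it. Cyp26b1, the Cyp26 enzyme known for keeping retinoic acid low in the fetal testis, had 63 on probe set 1460011_at, 1.35 times the limit, and 4 background probe sets reached it. Cyp26b1 was below the limit when this was set at the 99th percentile of background or from genes of other organs. Cyp26a1 stayed above the limit under all 8 alternatives tried. Of these alternatives, the mean and the lowest probe set could not move a gene with 1 probe set. The third Cyp26 gene, Cyp26c1, and Por, the electron donor of these enzymes, were not analysed here.

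**Figure D2:**
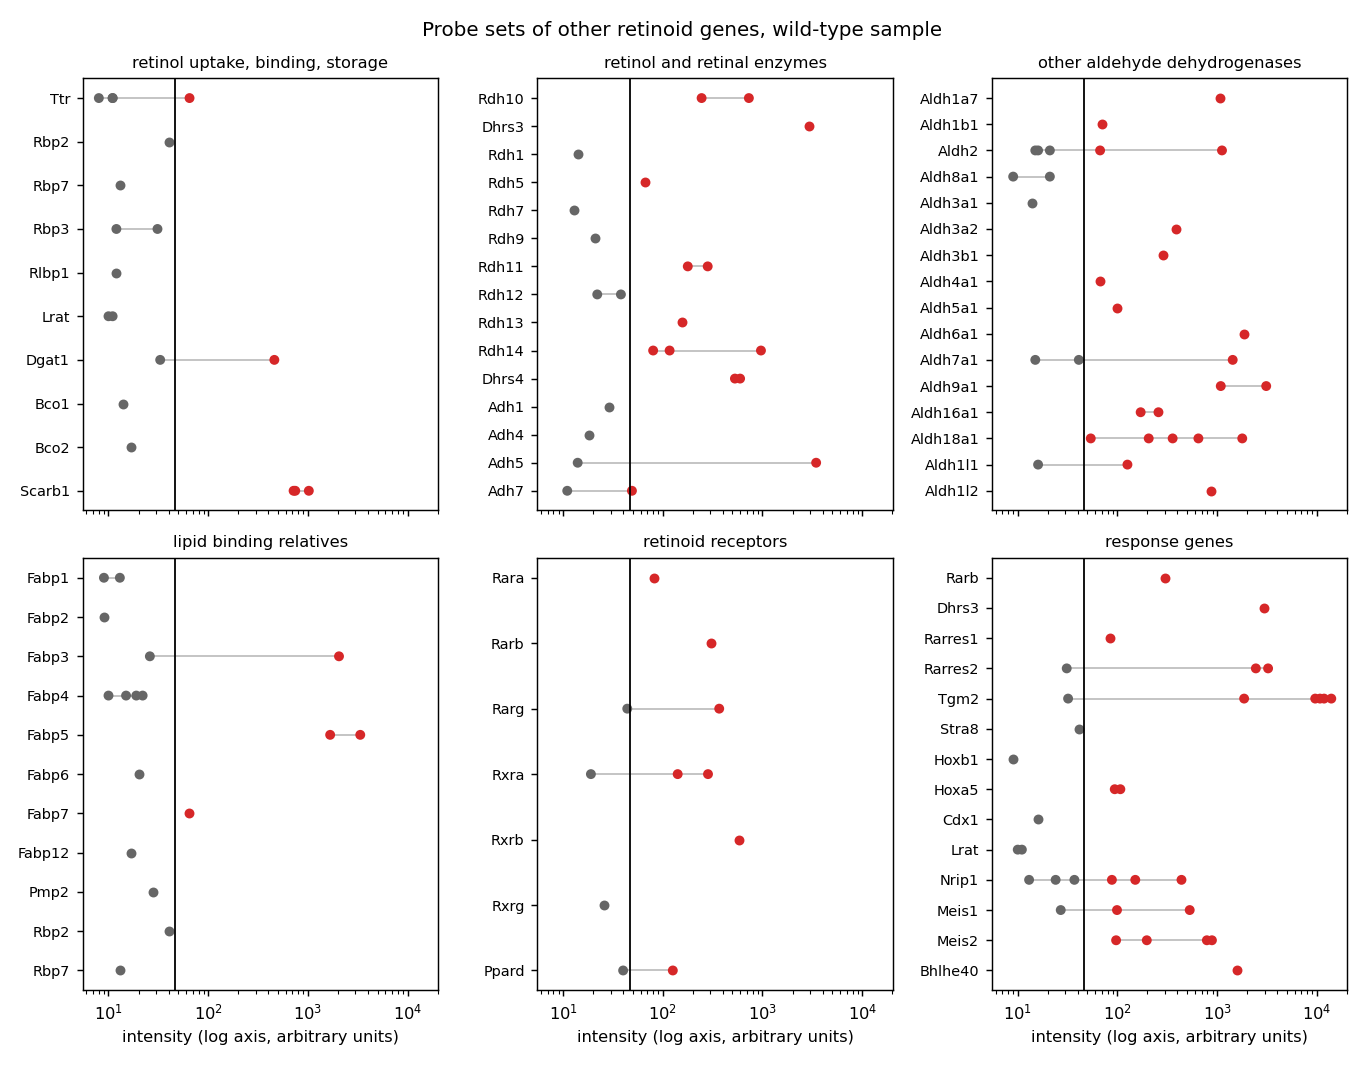
Intensity (log axis, arbitrary units) of every probe set of other genes of retinol handling, synthesis, binding, reception and response in the wild-type sample, with 1 point per probe set and a grey line joining the probe sets of a gene. The vertical line is the background limit of 46.5, with red points above it and grey points below it. Receptors are above the limit in 6 of 7 cases and lipid binding relatives in 3 of 11, beside 62.8% of all named genes.

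Nuclear receptors of retinoic acid and their partners were above background in 6 of 7 cases (85.7%), beside 62.8% of all named genes. The median level of the 7 was 8.15 on the log2 scale. Rara, Rarb and Rarg, the retinoic acid receptors, had 81, 302 and, for Rarg, 368 and 44. Rxra, a partner of these receptors on DNA, had 3 probe sets at 19, 141 and 284, and Rxrb, another partner, had 578. Rxrg, a partner found mainly in muscle and brain, had 26 and was the member of the list below the limit. Ppard, the receptor served by Fabp5, had 40 and 126. When the lowest probe set of each gene was taken, 3 of the 7 were above the limit.

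Genes known to respond to retinoic acid in many cell types were above background in 10 of 14 measured cases (71.4%). That share was near the 62.8% of all named genes, and 7 of the 14 had 1 probe set. Among all genes with several probe sets 78.7% were above background. The median level of the 14 was 8.51 on the log2 scale. Tgm2, tissue transglutaminase, had 5 of 6 probe sets between 1866 and 13972 and the other at 32. Rarres2, the precursor of the chemoattractant chemerin, had 2446 and 3245 on 2 probe sets and 31 on the third. Meis2, a homeodomain factor, had 4 probe sets between 97 and 887. Hoxa5, a position gene of the trunk, had 94 and 107. Stra8, which retinoic acid induces in germ cells at the entry into meiosis, had 41, below the limit. Cdx1 and Hoxb1, targets in the early embryo, had 16 and 9. Rarb, Dhrs3, Lrat and Nrip1 stand in other lists as well, and many of these genes have other regulators.

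**Figure D3:**
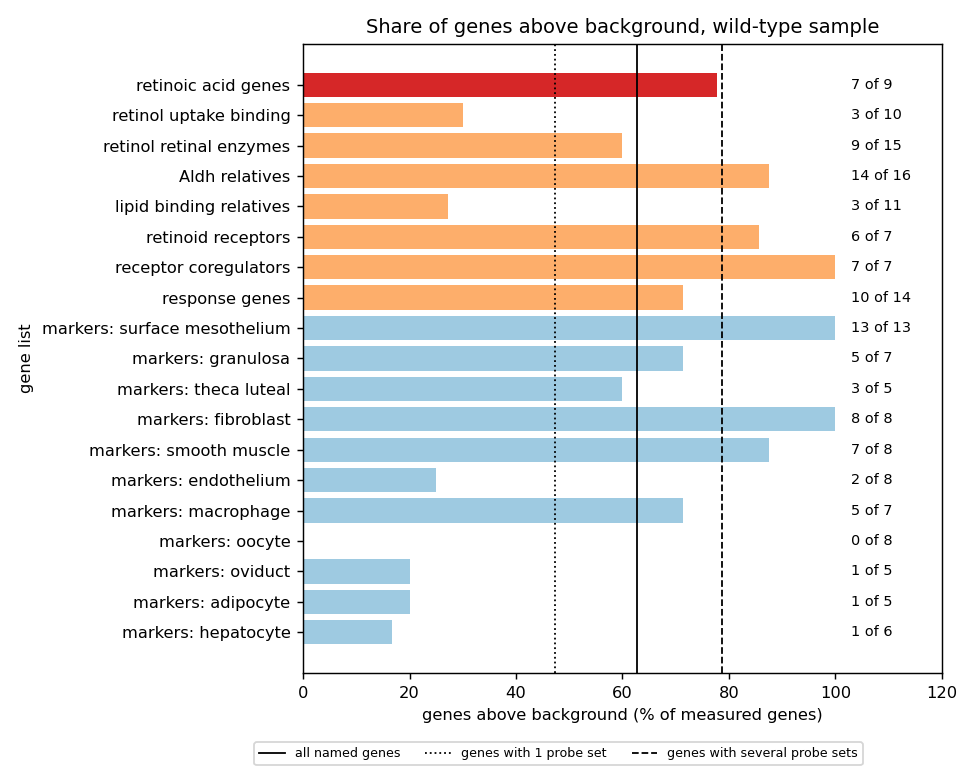
Share of measured genes above background in the set of 9 retinoic acid genes (red), other retinoid lists (orange) and cell type marker lists (blue) of the wild-type sample, with the counts at the right. The vertical lines give the share over all named genes (62.8%), genes with 1 probe set (47.3%) and genes with several (78.7%). The retinoic acid genes reach 77.8%, all 13 surface and mesothelium markers are above background and 0 of 8 oocyte markers are. Members and lists were chosen with earlier results of these data known.

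All 13 listed markers of surface epithelium and mesothelium, the labelled cell type, were above background, with levels from 1021 to 20836. Marker lists were chosen with earlier results of these data known, so this count is no independent check of the label. Krt8, Krt18 and Krt19, keratins of simple epithelia, had 4573, 3377 and 4897 on their brightest probe sets. Markers of other cell types were measured too, and the array cannot assign a transcript to a cell. Fibroblast markers were above the limit in 8 of 8 cases, with levels from 307 to 29972, and smooth muscle markers in 7 of 8, with levels from 16 to 23141. Granulosa markers were above it in 5 of 7 cases, theca and luteal markers in 3 of 5 and macrophage markers in 5 of 7. These shares were 71.4%, 60.0% and 71.4%, beside 62.8% of all genes. Levels ran from 34 to 1438 for granulosa markers, from 18 to 1229 for theca and luteal markers and from 16 to 527 for macrophage markers. Endothelial markers were above the limit in 2 of 8 cases, Esam at 1785 and Kdr at 1813. Oviduct markers were above it in 1 of 5 cases and oocyte markers in 0 of 8, with oocyte levels from 14 to 42. The part of other cells in the values of the retinoic acid genes was not tested.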

How the data were processed

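One array was analysed. The deposited table gives 1 intensity per probe set, made with affy and RMA per the submitters' processing notes. Neither the versions nor the set of arrays used for normalization is given in the sources used here. The output of RMA is normally log2, but all 45101 deposited intensities were whole numbers from 6 to 32341, so log2 was taken here. RMA compresses differences between low intensities, and rounding moves the lowest member by up to 0.047 on the log2 scale. An array has no read depth, and 1 array gives no precision.

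The platform annotation gave 34945 probe sets 1 gene symbol each. The 932 with several, the 9160 with none and 64 controls entered no gene count. Gene numbers of all 9 members matched the RefSeq table. The level of a gene was its brightest probe set, and the limit was the 95th percentile of 126 probe sets of 112 genes. All members were named with every probe set, with every measured gene of the pathway lists open to naming and of coregulators and marker lists the first 3 in written order, or one on the other side of the limit from most of its list. Members and lists were chosen with earlier results of these data known. A simulation drew its values from the same background probe sets, so it checked the code and could not test the choice of limit. Alternatives changed the percentile, the background genes, the summary of probe sets and the identifiers kept. Scripts ran in Python 3.11.15 with pandas 2.3.3, NumPy 2.4.6 and, for figures, matplotlib 3.10.9.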

Additional observations from a re-analysis of the deposited data

Results flagged for a closer look

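A probe set paired with both Rdh5, a retinol dehydrogenase of the eye, and Bloc1s1, a subunit of a vesicle-sorting complex, had an intensity of 1830 and entered no gene count because it has more than one symbol. The probe set of Rdh5 alone had 66. Because the brighter probe set is paired with both symbols, its signal cannot be assigned to either gene.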

How the results depend on the processing

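The 8 alternatives left 6 of the 9 genes on the same side of the limit throughout: Aldh1a1, Aldh1a2, Stra6, Crabp2 and Cyp26a1 above it, and Crabp1 below it in the 7 alternatives that measured it. The smallest margin among those above was that of Cyp26a1, 0.18 on the log2 scale with the 99th percentile. Taking the mean or the lowest probe set could not move a gene with 1 probe set, and 8 of the 9 members had 1. By its brightest probe set alone, Aldh1a3 moved above the limit by 0.61 with the 90th percentile and by 0.41 with olfactory and vomeronasal receptors as background. With the 99th percentile Rbp4 lay at -0.45 and Cyp26b1 at -0.43 from the limit, and with genes of other organs as background, whose limit was 65.4, at -0.077 and -0.054. The number of members above background was between 5 and 8, within 1.5 times the main 7. At 5 of 9 their share was 55.6%, beside 55.3% of all genes with the 99th percentile and 58.4% with genes of other organs. Over the pathway lists together 49 of 74 genes (66.2%) were above the limit, beside 62.8% of all genes, and 30 (40.5%) when a gene was represented by its dimmest probe set, beside 39.7%. Of 144 counts for the 18 single lists under these alternatives, 25 differed from the main count by over 1.5 times, 16 of them downward and 9 upward. With 1 array, no alternative bears on the spread between animals.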

Other observations

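Cofactors of the retinoid receptors were above background in 7 of 7 measured cases, with a median level of 9.41 on the log2 scale. Of these 7 genes 1 had a single probe set, and 78.7% of all genes with several probe sets were above the limit. Ncoa1, a coactivator, had values of 10, 410 and 680. Ncoa2, a related coactivator, had values of 15, 42, 69 and 731, and Ncoa3 had 95 and 223. By their dimmest probe sets, 2 of the 7 were above the limit.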
